A study of Mus musculus with 12 samples.

Results

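The olfactory receptor genes of the mouse were examined in 12 embryonic stem (ES) cell lines in which all CpG methylation had been laid down by a single introduced enzyme. The members were the autosomal genes whose mm10 symbol starts with Olfr, each taken from 2 kb upstream of its start to its end. This rule gave 1399 genes, of which 1128 are protein-coding and 271 are pseudogenes of several biotypes, among 51229 autosomal genes. Their windows held 50364 of the 20383623 autosomal CpG sites of the deposited table, with a median of 29 sites per gene. Genes less than 200 kb apart were joined, which gave 73 clusters, 25 of them of a single gene.

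All lines were triple knockout (TKO) ES cells that lack Dnmt1, Dnmt3a and Dnmt3b and stably express, from the pPyCAGIZ vector and under Zeocin selection, human DNMT3A or DNMT3B. The 6 groups, each of 2 separately derived lines, carried wild-type (WT) DNMT3A, WT DNMT3B (set a), DNMT3B N656I, WT DNMT3B (set b), DNMT3B K777A or DNMT3B N779A. Set a was the control for DNMT3A and N656I, and set b for K777A and N779A. No line had DNMT1, the enzyme that copies methylation after replication, and the enzymes were expressed from a vector and not from their own loci. Untransduced and empty-vector cells were not analysed here, so the background of unconverted cytosine was not set against these values.

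Olfactory receptors are G protein-coupled receptors, each tuned to a set of odorants. A mature olfactory sensory neuron expresses a single allele of a single receptor gene, while the other members of the family lie in silent heterochromatin. The coding sequence usually sits in 1 exon, the genes stand in long tandem arrays, and their promoters hold few CpG sites. In ES cells the family is largely silent. The data came from enhanced reduced representation bisulfite sequencing (eRRBS), in which DNA is cut with MspI, BfaI and MseI and unmethylated cytosine is converted, so that the share of reads with an unconverted C at a CpG site is its methylation level.

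The conserved DRY motif after the third transmembrane helix holds a CpG that recurs from gene to gene. Other motifs were not searched. The search took D and R, then Y, F or H, then V, L, A or I, then A, so genes with DRF or DRH are counted too. Of the 1128 protein-coding genes, 1014 held the motif in this wider form in the translated reference. In 849 of them its arginine codon began with CG. The sequence around it is shown for some of the well-studied receptors, read in the coding direction from GRCm38 (mm10), with each CpG in capitals. The last of them, Olfr73, reads DRF and has an arginine codon with no CpG.
Olfr1507, chr14:52490579-52490602, minus strand: atggcctatgatCGctatgtggcc
Olfr558, chr7:102709618-102709641, plus strand: atggcctttgacCGctatgtggcc
Olfr544, chr7:102484732-102484755, minus strand: atggctctagatCGctatgtggct
Olfr16, chr1:172957148-172957171, plus strand: atgggttatgatCGttatgtggct
Olfr78, chr7:102742630-102742653, minus strand: atggcctttgacCGgtaCGtggct
Olfr73, chr2:88034760-88034783, minus strand: atggcttatgacaggtttgtggcc
The octamer gacCGcta alone occurred at this place in 327 genes and gatCGcta in 165.

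3 short stretches held the single sites with the largest differences between the DNMT3A and the WT DNMT3B lines among sites with at least 10 reads in both DNMT3A lines and in 2 or more WT DNMT3B lines. They are shown on the plus strand of GRCm38 with CpG in capitals. The first lies upstream of Olfr379-ps1, the second in an intron of Olfr373 and the third in an untranslated exon part of Olfr1419.
Olfr379-ps1, chr11:73436050-73436112: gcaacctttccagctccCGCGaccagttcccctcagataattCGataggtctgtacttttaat
Olfr373, chr8:72084677-72084716: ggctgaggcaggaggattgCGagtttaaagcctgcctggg
Olfr1419, chr19:11869031-11869060: ctcaCGtcaCGCGgCGgCGggaacCGggga

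Depth set the limits of what could be read from single genes. Over the 12 lines the Olfr windows collected 30530 to 75833 reads, on 3.88 to 48.2% of their sites, against 4.94 to 50.9% of other autosomal sites. Line 2 of WT DNMT3B set a stood apart, with 15.6 reads per covered Olfr site on 1956 sites, where the other 11 lines had 2.17 to 4.87 reads on 7018 to 24274 sites. At least 1 read was found in every line for 791 of the 1399 genes, and in every line but that one for 1181. At least 30 reads on 5 sites in every line were found for 41 genes, and 3 genes had no read in any line. Results are therefore given mainly for reads pooled over genes, and the error is the spread between lines.

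Olfr genes were methylated in every group, but to a lower level than other autosomal sites with the same number of CpG sites around them. In the DNMT3A lines 31.5 and 30.9% of Olfr reads were methylated. In the WT DNMT3B lines of set a the level was 13.8 and 11.8%, and in those of set b 10.6 and 9.62%. The N656I lines had 11.1 and 8.71%, the K777A lines 5.67 and 6.44%, and the N779A lines 9.05 and 9.61%. The DNMT3A lines were far above all others, the K777A lines were the lowest, and the remaining 8 lines lay close to each other.

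Sites were then matched on density, the number of CpG sites within 100 bp on each side with the site itself counted, up to a class of 20 or more. For DNMT3A the density-matched level came to 39.0 and 39.3%, and for set a to 17.9 and 16.1%. It was 15.4 and 11.9% in the N656I lines, 14.9 and 13.7% in set b, 7.28 and 8.40% in the K777A lines and 12.1 and 13.9% in the N779A lines. The Olfr level was lower in 12 of 12 lines, with a mean difference of -4.26 percentage points (SD 1.97, n = 12 lines; two-sided exact permutation test over sign changes, p = 0.000488, the smallest that 12 lines allow). Relative to the matched level the Olfr genes were 19.3% lower in line 1 of DNMT3A, the least, and 30.7% lower in line 2 of N779A, the most. On the log2 scale the mean ratio was -0.42 (SD 0.07). The test covers the spread between lines only, since the members share every library.

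**Figure D1:**
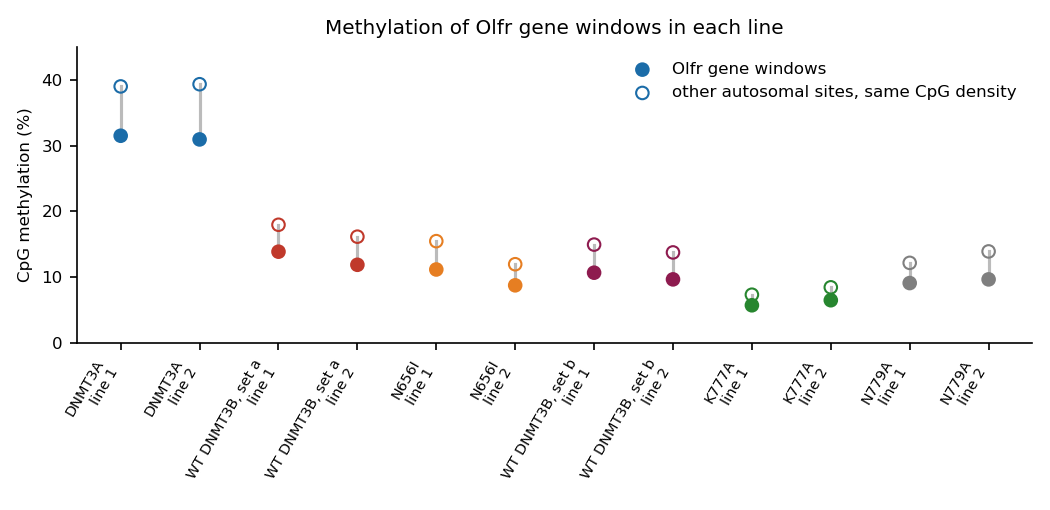
CpG methylation (%) of the Olfr windows (filled circles) and of other autosomal sites of the same CpG density (open circles) in each of the 12 lines. The filled circle is below the open one in all 12 lines, from 31.5 against 39.0% in line 1 of DNMT3A to 5.67 against 7.28% in line 1 of K777A.

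Base composition was also taken into the match. With sites matched on density and on the GC content of the 500 bp on each side in classes of 5 percentage points, the Olfr level was still lower in 12 of 12 lines, by 16.6 to 27.3%, and the mean difference was -3.45 percentage points. The log2 ratio then ranged from -0.46 to -0.26. This match was chosen after seeing the data.

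The first question of the study's design is whether DNMT3A and DNMT3B place methylation at different sites. Over the Olfr genes DNMT3A gave 31.2% ± 0.396 (SD, n = 2 lines) and its control, WT DNMT3B set a, 12.8% ± 1.41, a difference of 18.4 points or 2.43-fold. At the density-matched sites the fold was 2.30. The lines of the groups did not overlap, but with 2 lines against 2 the two-sided exact permutation test cannot give a p below 0.333, which was the value here. The log2 ratio to the matched level was -0.33 with DNMT3A and -0.41 with WT DNMT3B, a difference of 0.08 (exact p = 0.333), so a lower Olfr level than elsewhere was measured with both enzymes.

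The second question is what the residue exchanges in DNMT3B do. N656I gave 9.92% ± 1.71 against 12.8% ± 1.41 in set a, a difference of -2.92 points. K777A gave 6.05% ± 0.543 against 10.1% ± 0.718 in set b, a difference of -4.07 points or 0.598-fold, where the matched sites had 0.548-fold. N779A gave 9.33% ± 0.397, a difference of -0.791 points from set b. In each of the 3 comparisons both mutant lines were below both control lines, with p = 0.333 by the exact permutation test (n = 2 against 2), the smallest it allows. For N779A this order rests on 9.614% in its line 2 against 9.616% in line 2 of set b, which is practically a tie. The difference of N779A was about the size of the spread between its control lines. Relative to the matched level the differences of log2 ratio were -0.05 for N656I, 0.13 for K777A and 0.02 for N779A, with exact p of 0.333, 0.333 and 1 (n = 2 against 2). All 3 turned sign when sites with fewer than 10 reads were left out.

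Density divided the Olfr sites. Sites that stand alone within 100 bp made up 32.5% of Olfr sites but 16.4% of other sites, and sites with 12 or more CpG made up 1.72% against 7.12%. At lone sites the Olfr level was lower than elsewhere in 12 of 12 lines, with a mean difference of -5.13 points (SD 2.80). With DNMT3A it was 28.7 and 28.5% at lone Olfr sites against 39.2 and 39.0% at other lone sites. In the classes of 2 to 3 and of 4 to 6 sites the Olfr level was lower in 12 of 12 lines as well, with mean differences of -4.95 and -2.38 points. In the class of 7 to 11 sites it was lower in 8 lines and higher in 4, with a mean difference of -0.314 points (exact permutation test, n = 12 lines, adjusted p = 0.715). Without line 2 of WT DNMT3B set a the mean difference was 0.359 points.

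At dense sites, with 12 or more CpG in the window, the Olfr level was higher than at other sites of that class in 12 of 12 lines, by 5.81 points on average (SD 3.85). The class is open-ended, and the Olfr sites in it were less dense, with a median of 13 CpG against 18. Matched on the exact number of CpG the mean difference was 4.87 points (SD 3.92), with the Olfr level higher in 11 of 12 lines (two-sided exact permutation test, n = 12, p = 0.00293). Line 2 of WT DNMT3B set a was the exception, at -1.50 points. The difference lay at the 751 sites with 12 to 19 CpG, where it was 6.43 points (SD 4.86) and higher in 11 of 12 lines. At the 116 sites with 20 or more it was -0.123 points (SD 0.645), with 6 lines on either side. With DNMT3A the dense Olfr sites had 6.98 and 12.1% against 3.89 and 4.86% at other sites of the same exact density, and in set b 13.1 and 7.90% against 2.89 and 2.02%. The K777A lines had 2.08 and 2.09% against 1.52 and 1.49%. The differences at lone sites and in the classes of 2 to 3 and of 4 to 6 each had an adjusted p of 0.000610 (two-sided exact permutation test over 12 lines, Benjamini-Hochberg over the 5 classes), and matched on the exact number they were -4.89 points for 2 to 3 and -2.50 for 4 to 6, each lower in 12 of 12 lines.

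These dense sites were few. They numbered 867 in 61 genes, and 6 genes, Olfr1419, Olfr94, Olfr1372-ps1, Olfr1127-ps1, Olfr1267-ps1 and Olfr18, gave 75% of their reads. Without Olfr1419, the gene with most reads there, the dense Olfr sites were above other sites of the same exact density in 10 of 12 lines, by 3.86 points on average, and without all 6 genes also in 10 of 12, by 7.59 points. Line 2 of WT DNMT3B set a was an exception in both cases, joined by line 1 of K777A in the first and line 1 of N779A in the second. Of the 867 sites, 167 also lie in windows of other genes. The 700 that do not had 9.25 and 19.3% with DNMT3A, and the shared ones 2.41 and 1.89%. The 2 kinds of site were not matched on density within the class.

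**Figure D2:**
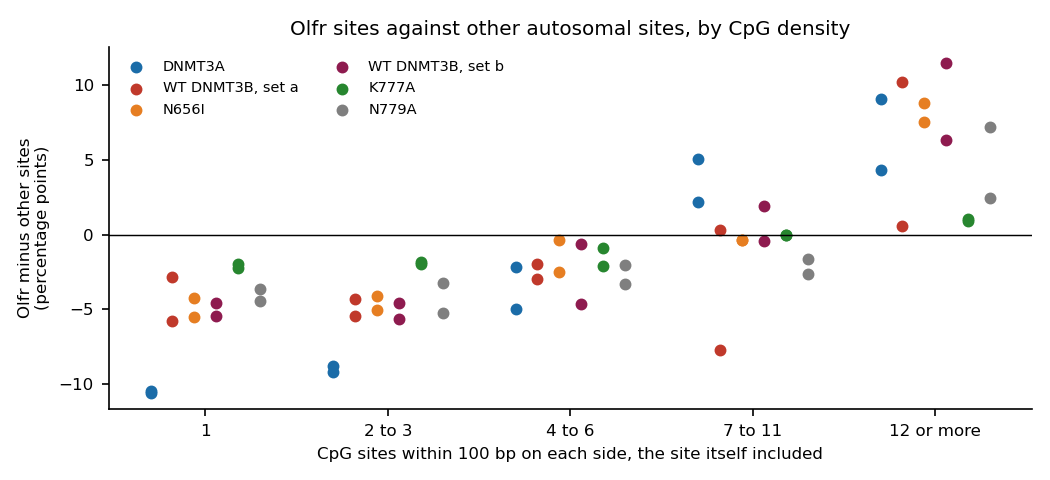
Difference in CpG methylation between Olfr sites and other autosomal sites (percentage points) by the number of CpG sites within 100 bp on each side, each point being 1 line in the colour of its group. Density was not matched within a class. All points lie below 0 in the first 3 classes and all lie above 0 in the class of 12 or more.

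The lower level followed the genes within their clusters. In the 32 clusters with at least 8 genes, which hold 1319 of the 1399 genes, the Olfr windows had a mean log2 ratio to the density-matched level of -0.43 (SD 0.08, n = 12 lines), and the sequence between the windows had -0.15 (SD 0.10). The windows were lower than the sequence between them in 12 of 12 lines (exact permutation test, adjusted p = 0.00146 over 9 such comparisons). The flanks within 500 kb of the clusters had -0.09 (SD 0.03) and those 1 to 2 Mb away -0.04 (SD 0.04). Windows were lower than the flanks within 500 kb in 12 of 12 lines, with the same adjusted p.

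Parts of the gene were compared within the windows. Coding sequence had a mean log2 ratio of -0.39, introns -0.46 and the 2 kb upstream -0.40, each below 0 in 12 of 12 lines. Upstream sequence was closer to the matched level than introns in 12 of 12 lines, by 0.07 (exact permutation test, adjusted p = 0.00146), whereas coding sequence and introns did not differ beyond the spread between lines (adjusted p = 0.249). The order of coding sequence and introns was not the same in all groups. In the DNMT3A lines coding sequence had -0.16 and -0.21 and introns -0.35 and -0.37, and in the K777A lines coding sequence had -0.63 and -0.56 and introns -0.34 and -0.36. The set b lines, which are the control of K777A, had -0.28 and -0.36 in coding sequence and -0.59 and -0.60 in introns. In set a, N656I and N779A the 2 lines of the group did not share an order of coding sequence and introns. Flanking bases were not matched in this comparison. The difference between groups was not tested. Protein-coding genes, at -0.44, were lower than pseudogenes, at -0.32, in 9 of 12 lines (exact permutation test, adjusted p = 0.0352). This call was lost without any 1 of 8 lines, both DNMT3A and both set a lines, both N779A lines, line 1 of N656I and line 2 of K777A, with an adjusted p of up to 0.0703.

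As a mean over the lines the ratio was lowest near the start of the protein-coding genes, and in 6 of the 12 lines the bin at the start was the lowest. Between 20 and 10 kb upstream the mean log2 ratio over the 12 lines was -0.15 (SD 0.10), and between 5 and 2 kb upstream it was -0.27 (SD 0.12). From 2 to 1 kb upstream it was -0.35 (SD 0.10), and from 1 kb to 250 bp upstream -0.50 (SD 0.14). The lowest mean was in the 500 bp centred on the start, at -0.61 (SD 0.19), with -1.06 in line 2 of WT DNMT3B set a and -0.32 in line 2 of DNMT3A at the ends. Further in, the ratio was -0.51 from 250 bp to 1 kb, -0.46 from 1 to 3 kb and -0.48 from 3 to 6 kb. In the other 6 lines the lowest bin was between 1 kb upstream and 3 kb further in, as in line 2 of DNMT3A with -0.55 from 250 bp to 1 kb against -0.32 at the start. The difference between bins was not tested. The bins beyond 2 kb upstream hold only sites outside every Olfr window. Of the 948 Olfr promoters in the RefSeq table of GRCm38, which run from 250 bases before the start to 50 after it, 33.3% hold no CpG, against 4.60% of 31903 promoters of other genes, and the median number of CpG is 1 against 8.

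**Figure D3:**
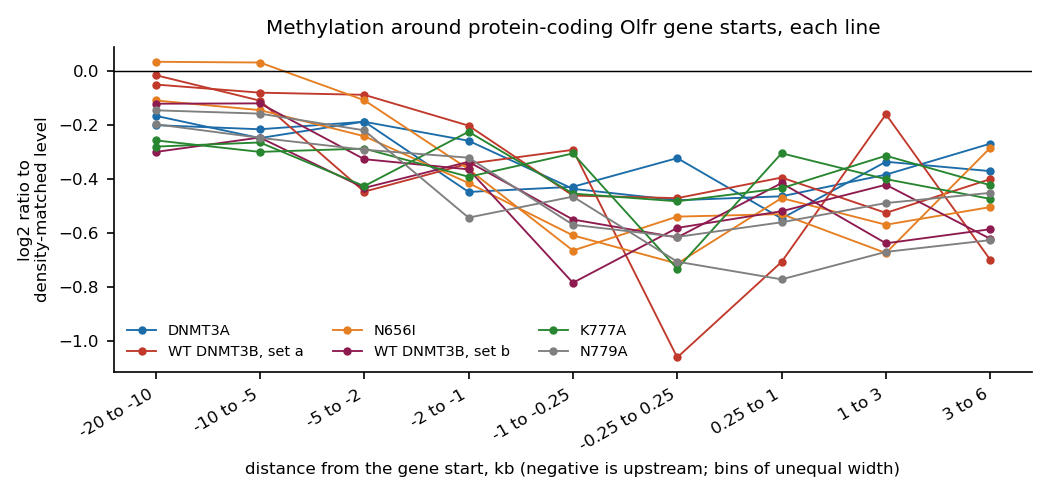
log2 ratio of methylation to the density-matched level by distance from the start of protein-coding Olfr genes (kb, bins of unequal width), each line of cells drawn as 1 line in the colour of its group. The mean goes from -0.15 in the bin farthest upstream to -0.61 around the start.

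Other chemosensory receptor families were measured in the same way. The Vmn1r (326 genes) and Vmn2r (235 genes) families encode the vomeronasal receptors that detect pheromones. Their windows had mean log2 ratios of -0.36 and -0.38, below 0 in 12 of 12 lines, and the differences from the Olfr windows, -0.07 (SD 0.14) and -0.05 (SD 0.15), did not pass the test (exact permutation test over 12 lines, adjusted p = 0.191 and 0.333). The 16 Taar genes, receptors for volatile amines, had -0.06 (SD 0.40), and the Olfr windows were lower in 11 of 12 lines (adjusted p = 0.0198). The Taar ratio ran from -0.98 to 0.68 and was below 0 in 7 of 12 lines. The mean difference of the Olfr windows from Taar was -0.37, and -0.45 without line 2 of set a. The 40 Tas2r genes, bitter taste receptors, had -0.52 (SD 0.55; adjusted p = 0.527). The Taar and Tas2r values rest on as few as 230 and 206 reads per line.

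**Figure D4:**
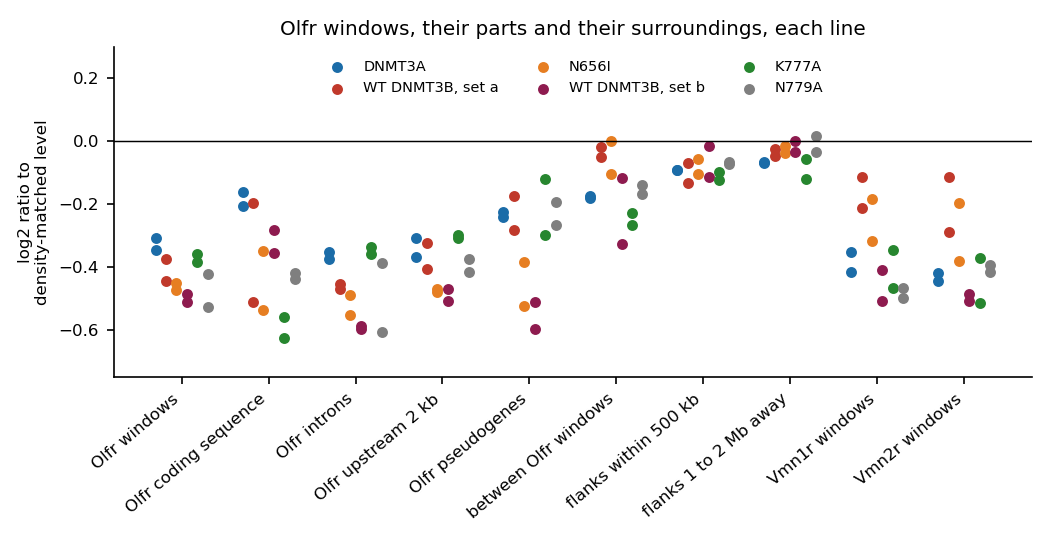
log2 ratio of methylation to the density-matched level in each line for the Olfr windows, parts of them, the surroundings of the clusters with at least 8 genes, and 2 vomeronasal receptor families, with colours for the groups. The Olfr windows lie between -0.53 and -0.31 and the flanks 1 to 2 Mb away between -0.12 and 0.02.

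The genes that carry the olfactory signal inside the neuron or control receptor choice lay near the matched level as a pool, with members on both sides of it. Over the windows of 20 such genes, among them the G protein subunit gene Gnal, the adenylyl cyclase gene Adcy3, the channel genes Cnga4, Cngb1 and Ano2, the chaperone genes Rtp1 and Rtp2 and the transcription factor genes Lhx2, Ebf1 and Emx2, the log2 ratio was between -0.09 and 0.21 in the 12 lines, and at most 0.03 without line 2 of set a. In the DNMT3A lines their level was 34.0 and 35.4%, against matched levels of 33.4 and 35.3%. The median ratio over the lines was below the matched level for 10 of the 20 genes and above it for 10. Lhx2, with log2 ratios from -1.33 to -0.07, and Ldb1, a cofactor of Lhx2, with -2.73 to -0.24, were below it in 12 of 12 lines. Atf5, another transcription factor gene, was below it in each of the 10 lines with a ratio, and Pde1c, a phosphodiesterase gene, in 11 of 12. Gnal was below it in 10 of 12 lines and Rtp1 in 9 of 11. Adcy3, Ebf1, Reep1 and Slc24a4 were above it in 10 of 12 lines. Of 100-kb tiles outside the Olfr clusters with at least 200 reads, 54.8 to 58.1% were below the matched level in a given line, and 7.54% in all 12. The same shares over all gene windows were not computed. The difference between these genes and the Olfr genes was not tested.

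Clusters varied around the family level. Among the 27 clusters with at least 300 reads in all lines but 1, the mean of the DNMT3A lines ran from 25.1 to 43.3% with a median of 30.1%. The mean of the 4 WT DNMT3B lines ran from 7.20 to 20.1% with a median of 11.5%, and that of the K777A lines from 4.02 to 7.54%.

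The largest cluster, chr2:85330779-90403897 with 287 genes, had 31.3 and 28.9% in the DNMT3A lines against matched levels of 38.2 and 39.0%. In the WT DNMT3B lines it had 13.3 and 11.4% in set a and 8.40 and 9.67% in set b. The second largest, chr9:37708964-40190134 with 123 genes, holds the genes of the acetophenone receptors M71 (Olfr151) and M72 (Olfr160), and had 34.2 and 35.3% with DNMT3A. The cluster at chr10:128989431-130214403 with 67 genes had 25.5 and 28.7% with DNMT3A, and the lowest mean over the WT DNMT3B lines of the 27 clusters, 7.20% (SD 3.8, n = 4). The cluster at chr19:12670439-13921866 with 64 genes had 29.7 and 27.6% with DNMT3A.

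The cluster at chr7:102476579-104207865 with 114 genes holds class I receptors, the group related to those of fish, among them Olfr78, Olfr544 and Olfr558. It had 32.4 and 29.1% with DNMT3A, 13.6 and 11.7% in set a, 10.4 and 8.81% with N656I, 11.5 and 8.95% in set b, 5.84 and 6.46% with K777A and 8.60 and 9.42% with N779A. These values lie near those of the whole family in each line.

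The highest cluster in both the DNMT3A and the WT DNMT3B lines was a small one of 8 genes at chr4:43694784-43857595, from Olfr70 to Olfr155. It had 46.4 and 40.2% with DNMT3A, against 40.4 and 39.6% at matched sites, and a mean of 20.1% (SD 3.86, n = 4) over the WT DNMT3B lines. The lowest with DNMT3A was the cluster of 32 genes at chr16:58759544-59363993, with 27.9 and 22.4%. Its WT DNMT3B lines had 12.1, 39.5, 9.35 and 6.83%, where the 39.5% came from the line of set a that stood apart in coverage.

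Of the 29 clusters with at least 200 reads in every line, 15 were below their own density-matched level in all 12 lines and 0 were above it in all 12. Among 20082 tiles of 100 kb outside the clusters with the same minimum, 7.54% were below it in all 12 lines. Tiles and clusters were not matched in reads. Both DNMT3A lines were above both lines of set a in 28 of 31 clusters, or 90.3%, where 94.3% of tiles were, and below them in 0, where 0.00967% of tiles were. Both N656I lines were below set a in 16 of 31 clusters, or 51.6%, against 36.8% of tiles, and above it in 0, against 2.23% of tiles. Both K777A lines were below set b in 30 of 33 clusters, or 90.9%, against 82.9% of tiles, and above it in 0, against 0.521% of tiles. Both N779A lines were below set b in 9 of 32 clusters, or 28.1%, against 27.8% of tiles, and above it in 1, the cluster of 46 genes from Olfr1275 to Olfr1319-ps1 on chromosome 2, against 10.5%.

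**Figure D5:**
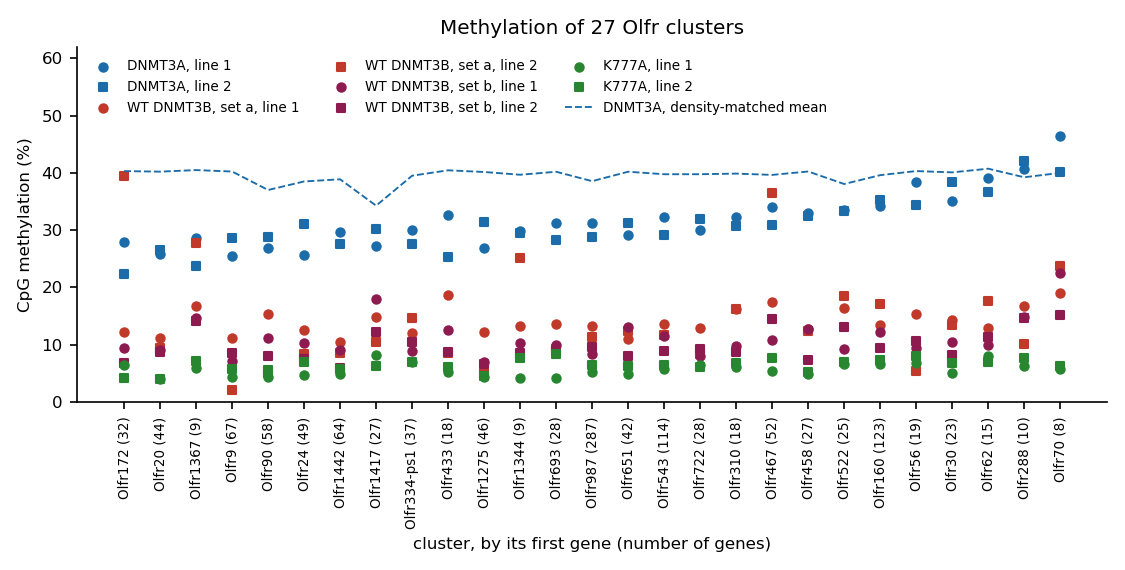
CpG methylation (%) of the 27 Olfr clusters with at least 300 reads in all lines but 1, ordered by the mean of the DNMT3A lines and named by their first gene with the number of genes in brackets. Points are lines of the DNMT3A, WT DNMT3B and K777A groups and the dashed line is the mean density-matched level of the DNMT3A lines, which only the clusters starting with Olfr288 and Olfr70 exceed in their mean.

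The level at Olfr sites differed with the bases beside the CpG. Strands were merged in the deposited table, so each class holds a sequence and its reverse complement. With WT DNMT3B of set b the highest Olfr levels were at CCGG, with 18.4 and 19.5%, and at TCGA, with 16.8 and 14.8%, and the lowest at GCGC, with 4.10 and 4.83%. With DNMT3A the order was different, with GCGC highest at 41.4 and 38.2% and TCGA lowest at 23.5 and 24.0%. The N656I lines were highest at CCGG, with 22.2 and 18%, and lowest at GCGC, with 2.18 and 2.16%. Their control, set a, had 21.9 and 13.6% at CCGG and 20.2 and 22% at TCGA. Its lowest class was GCGC in line 1, with 6.68%, and ACGG and CCGT in line 2, with 8.27%, next to 8.29% at GCGC.

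The order was different again with K777A. Its Olfr sites were highest at ACGT, with 10.2 and 12.1%, where set b had 7.68 and 7.73%, and lowest at CCGG, with 1.79 and 1.42%, where set b had 18.4 and 19.5%. Both K777A lines were thus above both control lines at ACGT and below them at CCGG. Other autosomal sites with the same flanks and density differed in the same directions, with 13.5 and 15.9% for K777A against 11.9 and 11% for set b at ACGT, and 1.98% in both K777A lines against 22.6 and 20.9% at CCGG. N779A was also above set b at ACGT, with 11.6 and 10.1%, and had 14.1 and 17.8% at CCGG. Other autosomal sites with the same flanks and density had 14.3 and 16.1% with N779A at ACGT, also above set b, and 18.6 and 21.4% at CCGG. With 2 lines a group none of these differences can pass an exact test, and the Olfr reads behind a class ranged from 952 to 14082 per line.

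Against other autosomal sites with the same flanking bases and density, Olfr sites were lower in 12 of 12 lines in 9 of the 10 classes. The exception was GCGC, the rarest class with 3.68% of Olfr sites, where they were lower in 10 of 12 lines. Olfr sites held relatively more of the class ACGA and TCGT, 17% against 13% of other sites, and of ACGT, 10.1% against 8.22%.

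The DRY-motif CpG could be read on 7 to 270 of its 848 distinct sites per line. Pooled over the genes its level was 44.1 and 37.1% with DNMT3A and 20.4% in line 1 of set a, and 0 of 127 reads in line 2 of set a, which allows a level of up to 2.36%. It was 11 and 6.52% with N656I, 8.71 and 14.3% in set b, 2.33 and 2.31% with K777A and 7.34 and 9.79% with N779A. The DNMT3A lines were the highest, and the K777A lines, with 300 and 607 reads, were the lowest apart from the line with 0. Matched on density and flanking bases, the DRY site was lower than other autosomal sites in 9 of 12 lines, with a mean difference of -2.93 points (SD 4.72; two-sided exact permutation test, n = 12, p = 0.0391). Without line 2 of set a the mean difference was -1.86 points (exact permutation test, n = 11, p = 0.0781), and p was also above 0.05 without any 1 of 8 other lines, up to 0.0703. In line 2 of set a the difference was -14.7 points, on 7 covered sites.

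At single sites 14 CpG of the Olfr windows had enough reads to compare DNMT3A with WT DNMT3B, 8 of them higher with DNMT3A, 4 lower and 2 at 0 in both. All 4 lower ones lie in the Olfr1419 stretch shown above, and several of the others also stand close together. The share of all autosomal sites with as many reads was not computed. Of the 100-kb tiles outside the clusters, with at least 200 reads per line, 94.3% had both DNMT3A lines above both lines of set a. The sites named were picked by their difference, so their values are a description. In the stretch upstream of Olfr379-ps1 shown above, the CpG at position 73436069 of chromosome 11 was methylated in 16 of 28 and 18 of 25 reads with DNMT3A, in 4 of 12 and 0 of 11 in set a and in 0 of 12 and 2 of 21 in set b. The CpG at 73436092, just downstream on that strand, had 10 of 28 and 8 of 26 with DNMT3A, and at most 1 read in any of the 4 WT DNMT3B lines. The intronic CpG of Olfr373 at 72084696 of chromosome 8 had 15 of 21 and 15 of 27 with DNMT3A, 0 of 27 in line 1 of set a, which allows up to 11.1%, and 4 of 17 and 3 of 10 in set b.

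The dense stretch of Olfr1419 showed the opposite order. Its last CpG in the sequence shown, at 11869055 of chromosome 19, lies in CCGG and was methylated in 0 of 39 and 0 of 13 reads with DNMT3A, which allow levels of up to 7.69 and 23.1%. It was methylated in 12 of 26 and 5 of 5 reads in set a, in 15 of 22 and 3 of 18 in set b, in 43 of 80 and 22 of 38 with N656I, in 0 of 13 and 0 of 27 with K777A, and in 0 of 2 and 13 of 44 with N779A. DNMT3A and K777A thus left no methylated read at this site, while every WT DNMT3B and N656I line had some. The CpG at 11869048 had 2 of 38 and 2 of 13 with DNMT3A, against 5 of 34 and 5 of 5 in set a and 12 of 26 and 7 of 18 in set b. Reads at these sites share fragments, so neighbouring sites are not independent.

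The well-studied receptors were thinly covered. Pooled over 10 of them (Olfr2, Olfr16, Olfr17, Olfr73, Olfr78, Olfr151, Olfr160, Olfr544, Olfr558 and Olfr1507) the level was 37.0 and 29.8% with DNMT3A and 12.5 and 15.2% in set a. It was 11.6 and 11% with N656I, 7.03 and 8.91% in set b, 5.28 and 7.59% with K777A and 8.55 and 11.6% with N779A, on 158 to 804 reads per line. DNMT3A was the highest and K777A the lowest group mean, as in the whole family. Set b, with a mean of 7.97%, lay below N656I with 11.3% and N779A with 10.1%, whereas over the whole family it lay above both. The pool leaned on Olfr78, which gave 22 of the 24 methylated reads in line 2 of set a. Without Olfr78 that line had 1.47%, on 136 reads, against 13.3% in line 1. Set b then had 5.47 and 5.81% and K777A 5.46 and 7.96%, so that K777A no longer had the lowest mean.

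Olfr78, a receptor also expressed in the carotid body, had most reads, from 22 to 226 per line. Its level was 41.5 and 37.0% with DNMT3A, 9.38% in line 1 of set a, 12.7 and 16.8% in set b, 5.81 and 16.3% with N656I, 4.95 and 6.64% with K777A and 9.09 and 15.6% with N779A. In line 2 of set a all 22 reads were methylated. Olfr558, its neighbour in the cluster and a receptor for short-chain acids, had 41.1 and 23.4% with DNMT3A, 9.09% and 0 of 34 reads in set a, and 0 of 50 reads and 2.35% in set b. The 34 and 50 reads at 0 allow levels of up to 8.82 and 6%. It had 15.5 and 15.7% with N656I, 8.54 and 8.85% with K777A and 12.3 and 14.3% with N779A, each above its control lines. K777A and N779A share set b as control, which rests here on 50 and 85 reads. Olfr558 was among the 3 Olfr genes with the smallest p for N779A, where its centred change was 3.37 on the log2 odds scale (SE 1.02, adjusted p = 0.802 by limma).

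For single genes the question was which ones departed from the shift of the genome as a whole. Log2 odds of methylation were centred on the median gene and tested by limma over all autosomal genes with at least 30 reads on 5 sites in each of the 4 lines compared. Of the Olfr genes 57 could be tested for DNMT3A, 55 for N656I, 176 for K777A and 150 for N779A, and 0 passed an adjusted p of 0.05 in any comparison. The share called among all 21826 to 27470 genes tested was 0% with limma in all 4. By edgeR's quasi-likelihood test 0 Olfr genes were called in any comparison, and of all genes 0.0183% for DNMT3A, 0% for N656I, 0.00364% for K777A and 0.0150% for N779A. Without line 1 of set a, limma called 26 of the 57 Olfr genes for DNMT3A, or 45.6%, against 45% of all genes, and 20 of 55 for N656I, or 36.4%, against 42%.

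At an unadjusted limma p under 0.05 there were 1, 2, 12 and 10 Olfr genes in the 4 comparisons in that order, or 1.75, 3.64, 6.82 and 6.67%, beside shares of all genes of 2.27, 1.54, 7.06 and 5.77%. The 1 gene for DNMT3A was Olfr70, of the cluster on chromosome 4 described above, with 48.0% against 3.34%, and the 2 for N656I were Olfr183 and Olfr767. The median centred change of the Olfr genes tested was 0.52, 0.22, 0.28 and 0.07 on the log2 odds scale, with a median SE of 1.00 to 1.24, against -0.01, -0.02, 0.02 and 0.00 for all genes. Of the signalling genes 17, 17, 19 and 18 could be tested and 0 were called, with 0, 0, 3 and 3 at an unadjusted p under 0.05. These were Ric8b, Ebf1 and Gng13 for K777A and Atf5, Ebf1 and Gng13 for N779A.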

How the data were processed

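Per the labels, genomic DNA of the 12 lines was digested with MspI, BfaI and MseI, treated with bisulfite and sequenced. The authors clipped and filtered reads, aligned them with Bismark 0.18.1 and Bowtie 1.2 to mm10 (GRCm38) with phage lambda, counted overlapping bases once, dropped read pairs with several methylated non-CpG cytosines and merged both strands. They deposited raw counts per CpG site: methylated reads and all reads. No filter on coverage was applied here unless named. Gene models were GENCODE M21. Levels are methylated reads divided by all reads, pooled over covered sites. The matched level weights the rates of other autosomal sites of each density class by the Olfr reads in that class. Lines were compared by two-sided exact permutation tests, and genes by limma 3.58.1 (offset 0.5, mean-variance trend, Benjamini-Hochberg) with edgeR 4.0.16 as an alternative, in Python 3.11 and R. The gene tests were tested on simulated data drawn over the 27470 genes of the K777A comparison. There limma recovered 61 of 100 genes changed by 2 and 92 of 100 changed by 4 on the log2 odds scale, with 18 false calls. Recovery was not computed for Olfr genes alone. The 176 Olfr genes tested in that comparison had a median SE of 0.999 on the same scale. The recovery rates therefore do not give the power of the test at Olfr genes. Intervals and floors (3 reads) cover counting error only, since reads carry no molecular identifiers. The 2 lines of a group were separately derived. The members and gene lists were chosen with earlier results of these data known. Named were the 10 receptors and 20 signalling genes of fixed lists, the 2 genes called with the largest change in each direction (0 were), the 5 largest clusters with those highest and lowest in DNMT3A and WT DNMT3B lines, and single sites by their difference. The genes of the dense sites and those with the smallest unadjusted p were named after their values were seen, and matching on the exact density and leaving out Olfr78 were likewise added after seeing the data.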

Additional observations from a re-analysis of the deposited data

Results flagged for a closer look

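The X-linked Olfr genes lie outside the autosomal rule and entered no comparison. The 8 genes hold 371 CpG sites with 126 to 295 reads per line, and their median level over the 12 lines was 9.85%, above the level that 3 reads would give in every line (at most 2.38%). It was 48.4 and 47.1% in the DNMT3A lines and 4.88 to 20.3% in the other 10 lines. Groups of 2 lines are too small for a test of single outlying lines.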

How the results depend on the processing

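The lower Olfr level against density-matched sites kept its direction and its side of the threshold under every alternative run, with means from -5.30 to -3.22 percentage points, and from -4.50 to -3.88 with each line left out. The level differences between groups kept their direction under all alternatives: without 1 line they ranged from 17.4 to 19.4 points for DNMT3A, -4.12 to -1.71 for N656I, -4.58 to -3.56 for K777A and -1.30 to -0.283 for N779A. With at least 10 reads per site the difference became -6.36 points for K777A and -1.55 for N779A, and with each covered site weighted equally it became -0.333 for N779A. The differences of log2 ratio were less stable. With at least 10 reads per site they became 0.0152 for N656I, -0.0034 for K777A and -0.0428 for N779A. For N779A the value was also -0.0112 with at least 3 reads, -0.0068 with protein-coding genes alone and -0.0274 with matching on GC content. Without 1 line these differences ranged from 0.05 to 0.12 for DNMT3A, -0.09 to -0.02 for N656I, 0.12 to 0.14 for K777A and -0.0288 to 0.0781 for N779A. The cause was not tested. Without line 1 of WT DNMT3B set a, which leaves as control the line that stood apart in coverage, 26 of 57 Olfr genes were called for DNMT3A (45.6%, against 45% of all 21826 genes) and 20 of 55 for N656I (36.4%, against 42% of all 21871), and 0 without any other line (range 0 to 26 and 0 to 20), where 4 to 6 of all genes (up to 0.0275%) were called for DNMT3A and 0 to 1 (up to 0.00457%) for N656I. For K777A and N779A 0 Olfr genes were called without any 1 line, against 0 to 17 (up to 0.0619%) and 1 to 92 (up to 0.345%) of all genes. The lone line is then assumed to vary like the other group. With the replicate number as a block 0 Olfr genes were called in the 4 comparisons, against 41 of all genes (0.188%) for DNMT3A, 2 (0.00914%) for N656I, 0 for K777A and 4 (0.0150%) for N779A. Same-numbered lines share only a number, as the correlation of their deviations was -0.03 to 0.01 over gene windows. Without centring 819 of all genes (3.75%) were called for DNMT3A, and 0 of 57 Olfr genes. Depth limits single genes.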
